A study of Caenorhabditis elegans with 12 samples.

Results

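The 10 genes described here encode chaperones, folding enzymes and stress sensors of the endoplasmic reticulum (ER) in *C. elegans*. The rule names them and sets no threshold on their values, but they were named with earlier results of these data known. All 10 were found in a table of 46739 features (*hsp-3*, *hsp-4*, *pdi-1*, *pdi-2*, *pdi-3*, *pdi-6*, *crt-1*, *ire-1*, *xbp-1* and *atf-6*). RNA-seq was performed on whole day 1 adults of PMD216, whose labelled genotype holds rrf-3(b26) II and rde-1(ne219) V together with the transgenes dat-1p::GFP and dat-1p::sid1-SL2-rde-1. The study's strain list adds fem-1(hc17) IV, eri-1(mg366) IV, lin-15B(n744) X and wpSi6 II, and every library, controls included, comes from this 1 strain. The *dat-1* promoter restores RNAi in dopaminergic neurons of an RNAi-defective animal, so knockdown was directed to those few neurons while RNA came from pooled whole worms. Worms were fed bacteria carrying an empty vector (EV), *cat-1* RNAi (against the vesicular monoamine transporter) or *cat-2* RNAi (against tyrosine hydroxylase, the rate-limiting enzyme of dopamine synthesis), with 4 libraries labelled as biological replicates in each of the 3 groups.

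Proteins that enter the ER are folded there with the help of chaperones. BiP, an Hsp70-type chaperone, holds unfolded chains, protein disulfide isomerases form and reshuffle disulfide bonds, and calreticulin binds glycoproteins and stores calcium. When unfolded proteins accumulate, the unfolded protein response begins at sensors in the ER membrane. The kinase and ribonuclease IRE-1 splices *xbp-1* mRNA so that it encodes an active transcription factor, ATF-6 is cut to release another transcription factor, and the kinase PEK-1 slows translation. In worms the *hsp-4* transcript is the most used readout of this response, because it rises strongly through IRE-1 and XBP-1 when folding is disturbed. The comparisons here ask whether lowering *cat-1* or *cat-2* in dopaminergic neurons came with a change in these transcripts in the whole animal.

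Levels are given as deposited RPKM, that is, reads scaled to the length of the transcript and to the mapped reads of the library, which allows genes of different length to be compared. The 12 libraries held 18765779 to 21493743 mapped reads. Markers of intestine, oocytes, muscle and neurons were present in all 12 libraries, while *dat-1*, the defining transporter of dopaminergic neurons, had at most 0.169 RPKM in any library, and 8 sperm markers summed to 1.70 to 8.42 RPKM. In such bulk RNA, fewer cells of a type and less RNA per cell cannot be told apart. Both RNAi targets had more reads in the libraries labelled with their own RNAi than in EV (107 against 15 reads of *cat-1* and 156 against 19 reads of *cat-2*, summed over 4 libraries), so the targets do not check the labels as a knockdown, and the group names below are those of the labels. Replicate 2 labelled *cat-2* RNAi stood apart from the others, with a summed RPKM of 664964 against 698028 to 715830 in the other 11 libraries and a limma library weight of 0.331, and replicate 3 labelled *cat-2* RNAi had the next lowest weight, 0.629. EV replicate 2 had 456 RPKM over 4 muscle markers, against 247 to 285 RPKM in the other 11 libraries.

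The chaperones and folding enzymes were among the most abundant transcripts of the worm, whereas the sensors were lower. Over the 12 libraries *crt-1* had a mean of 721 RPKM and rank 154 among the 13161 genes that had at least 0.5 RPKM in at least 4 libraries. It was followed by *pdi-3* with 460.0 RPKM, *hsp-3* with 311, *pdi-2* with 298, *pdi-1* with 273 and *hsp-4* with 191. The mRNA of the transcription factor *xbp-1* (176 RPKM) was as abundant as that of the folding enzyme *pdi-6* (176), and either of them could be the higher, *xbp-1* in 7 of 12 libraries. *ire-1* had 56.1 RPKM and rank 2926, and *atf-6* had 10.4 RPKM and rank 6934, near the middle of the tested genes. *hsp-3* exceeded *pdi-2* in 11 of 12 libraries, and apart from this pair and *xbp-1* with *pdi-6* the neighbours in this order kept their places in all 12. RPKM of a whole gene does not separate spliced from unspliced *xbp-1*, so the splicing by IRE-1 could not be read from these values.

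**Figure D1:**
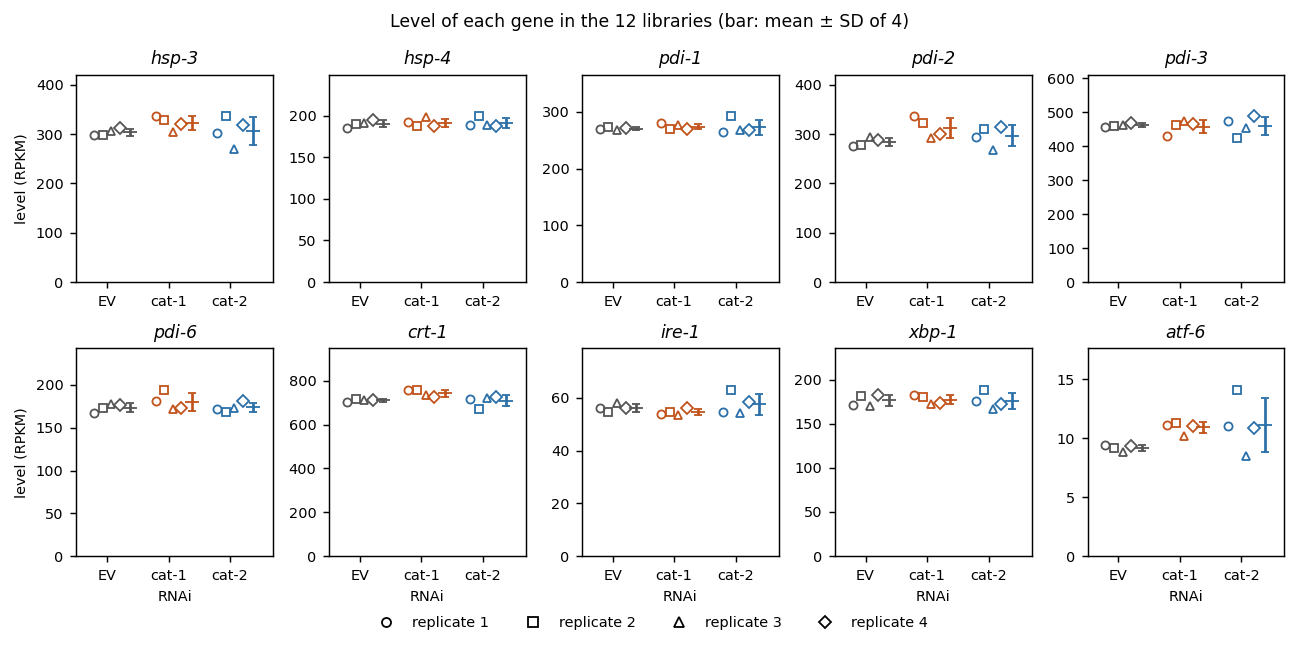
Level in RPKM (y axis, from 0) of the 10 genes in each library, by RNAi group (x axis), with symbols for replicates 1 to 4 and a bar for the mean ± SD of 4 libraries. The groups lay close together for every gene, and the widest spread was that of *atf-6* in *cat-2* RNAi, from 8.50 to 14.1 RPKM.

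*hsp-3* and *hsp-4* both encode BiP. *hsp-3* lies on chromosome X, 6089028 to 6092124, minus strand (annotation of WBcel235, the same assembly as the deposited build ce11), and *hsp-4* lies on chromosome II, 7350112 to 7352645, minus strand. As close paralogs they could exchange reads in the counting, whose handling of reads with several places is not given in the sources used here. *hsp-4*, the stress-responsive copy, had 185, 189.8, 191 and 195 RPKM in EV replicates 1 to 4, 192, 188, 198 and 187 in *cat-1* RNAi and 188, 199, 188 and 188 in *cat-2* RNAi. Its 12 values thus spanned 185 to 199 RPKM and the groups overlapped, with *cat-2* RNAi replicate 2 the highest library and EV replicate 1 the lowest. The group means were 190.1 ± 4.202 RPKM in EV, 192 ± 4.96 RPKM in *cat-1* RNAi and 191 ± 5.60 RPKM in *cat-2* RNAi (SD, n = 4 each). The log2 fold change against EV was 0.010 (SE 0.0355, adjusted p = 0.992) for *cat-1* RNAi and 0.0071 (SE 0.0355, adjusted p = 0.961) for *cat-2* RNAi, from limma on log2(RPKM + 0.5) over all 13161 genes with Benjamini-Hochberg adjustment. The 95% intervals of these differences were -4.47% to 6.18% and -4.68% to 5.95% of the EV level. The direction of both differences turned under some alternatives.

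*hsp-3*, the more constitutive copy, varied more from library to library than *hsp-4* did. It had 298, 299, 306 and 313 RPKM in EV, 336, 328, 304 and 321 in *cat-1* RNAi and 303, 336, 270.0 and 317 in *cat-2* RNAi. In *cat-1* RNAi, 3 of 4 libraries exceeded every EV library and replicate 3 lay among them, while *cat-2* RNAi held both the highest library of all 12 (replicate 2) and the lowest (replicate 3). The log2 fold change was 0.084 (SE 0.0585, adjusted p = 0.888) for *cat-1* RNAi and 0.0085 (SE 0.0585, adjusted p = 0.972) for *cat-2* RNAi, and neither passed the test in limma. The coefficient of variation over the 12 libraries was 6.04% for *hsp-3* and 2.37% for *hsp-4*, where counting error alone gives 0.779% and 1.09%.

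The ratio of *hsp-4* to *hsp-3* compares the stress-responsive with the constitutive BiP transcript within 1 library, where the library's scaling cancels. A shift of X-linked against autosomal genes does not cancel, since only *hsp-3* is X-linked. The difference of their medians, described below, was 0.070, 0.054, -0.023 and 0.014 in *cat-1* RNAi replicates 1 to 4. Its part in the ratio was not tested. The ratio was 0.620, 0.635, 0.626 and 0.622 in EV, 0.573, 0.572, 0.653 and 0.584 in *cat-1* RNAi, and 0.623, 0.593, 0.698 and 0.592 in *cat-2* RNAi. Of the *cat-1* RNAi libraries, 3 lay below every EV library and replicate 3 lay above them all, so the groups overlapped. The mean log2 ratio differed by -0.074 between *cat-1* RNAi and EV (exact two-sided permutation test of 4 against 4 libraries, p = 0.143, adjusted p = 0.429 over 3 comparisons). The log2 fold changes in that comparison were 0.010 for *hsp-4* and 0.084 for *hsp-3*, so the lower ratio lay mostly in *hsp-3*. With each of the 8 libraries left out in turn, the difference in mean log2 ratio ranged from -0.12 to -0.055. The -0.12 came without *cat-1* RNAi replicate 3 (exact permutation p = 0.0571, the smallest possible with 3 against 4). Leaving out the only *cat-1* RNAi library above EV fixed that p in advance. Between *cat-2* RNAi and EV the mean log2 ratio differed by -0.0014 (exact permutation p = 1), and between *cat-1* RNAi and *cat-2* RNAi by -0.072 (exact permutation p = 0.371, adjusted p = 0.557). The smallest p this test allows with 4 against 4 is 0.0286.

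The 4 protein disulfide isomerases differed in their patterns. *pdi-2* (chromosome X, 4524155 to 4526536, plus strand) encodes the isomerase that also serves as a subunit of the collagen prolyl hydroxylases of the worm. It had 276, 279, 294 and 289 RPKM in EV, 336, 323, 292 and 301 in *cat-1* RNAi and 295, 309, 268 and 314 in *cat-2* RNAi. All 4 *cat-1* RNAi libraries exceeded the EV mean and 3 exceeded every EV library, but replicate 3 lay below the highest EV library. The means were 313 ± 20.4 RPKM in *cat-1* RNAi, 284 ± 8.57 RPKM in EV and 297 ± 20.8 RPKM in *cat-2* RNAi (SD, n = 4). The log2 fold change upon *cat-1* RNAi was 0.14 (SE 0.0567, adjusted p = 0.819), or 9.87% with an interval of 0.962% to 19.6%, which passed the unadjusted threshold of 0.05 but not the adjusted one. The unadjusted p was above 0.05 without EV replicate 1 or 2 or *cat-1* RNAi replicate 1 or 2, and ranged from 0.0130 to 0.107 when each library was left out. It was also above 0.05, at 0.0585, without the variance trend and robust estimation in limma. Upon *cat-2* RNAi the log2 fold change of *pdi-2* was 0.058 (SE 0.0567, adjusted p = 0.774).

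*pdi-1* (chromosome III, 3699739 to 3701461, minus strand) was the steadiest of the isomerases in EV. It had 269, 273, 268 and 272 RPKM in EV, 279.7, 269.8, 277 and 270.4 in *cat-1* RNAi and 265, 293, 268 and 267 in *cat-2* RNAi. A single library, *cat-2* RNAi replicate 2, stood above the rest, and the groups overlapped. *pdi-3* (chromosome I, 7015908 to 7020797, minus strand), related to mammalian ERp57, had 456, 461, 462 and 469 RPKM in EV, 429.7, 463, 474 and 466 in *cat-1* RNAi and 473, 425, 453 and 489 in *cat-2* RNAi. Its 2 lowest libraries were *cat-2* RNAi replicate 2 and *cat-1* RNAi replicate 1, which were among the highest for *hsp-3* and *pdi-2*. *pdi-6* (chromosome X, 7066342 to 7068563, minus strand), related to mammalian P5, had 167, 174, 178 and 176 RPKM in EV, 182, 194, 172 and 174 in *cat-1* RNAi and 172, 169, 173 and 181 in *cat-2* RNAi, with *cat-1* RNAi replicate 2 highest and all groups overlapping. The log2 fold changes upon *cat-1* RNAi were 0.019 for *pdi-1*, -0.013 for *pdi-3* and 0.053 for *pdi-6*, and those upon *cat-2* RNAi were 0.012, -0.0069 and 0.00080. None of the 6 passed the test in limma (adjusted p from 0.899 to 0.998).

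*crt-1*, which encodes calreticulin, lies on chromosome V, 6098992 to 6100542, minus strand, and 92 of its 1401 annotated exon bases overlap *smut-1* on the opposite strand (59.8 RPKM over the 12 libraries), whose reads could not be told apart there without strand. *crt-1* had 702, 717, 713 and 713 RPKM in EV, 758, 756, 736 and 724 in *cat-1* RNAi and 717, 670.4, 721 and 728 in *cat-2* RNAi. All 4 *cat-1* RNAi libraries lay above all 4 EV libraries, whereas the *cat-2* RNAi libraries lay on both sides of them, with replicate 2 the lowest of all 12. The difference was small, 744 ± 16.5 RPKM against 711 ± 6.28 RPKM (SD, n = 4), and on the log2 scale it was 0.064 (SE 0.0384, adjusted p = 0.868). The limma test, which pools the spread of the 3 groups, did not call it (unadjusted p = 0.120). Under the alternatives described below the smallest unadjusted p was 0.0338 and the smallest adjusted p 0.518. In *cat-1* RNAi against *cat-2* RNAi the log2 fold change was 0.069 (SE 0.0384, unadjusted p = 0.0955, adjusted p = 0.825 in limma). There the smallest values under the alternatives were 0.0498 unadjusted and 0.650 adjusted.

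The sensors and their transcription factors showed no common direction. *ire-1* (chromosome II, 8112243 to 8124910, minus strand) had 56.0, 54.6, 58.1 and 56.0 RPKM in EV, 53.8, 54.7, 53.6 and 56.2 in *cat-1* RNAi and 54.6, 63.0, 54.4 and 58.3 in *cat-2* RNAi. The EV and *cat-1* RNAi libraries overlapped, and *cat-2* RNAi replicate 2 was the highest library. *xbp-1* (chromosome III, 4193809 to 4195358, plus strand) had 171, 182, 170.4 and 182 RPKM in EV, 183, 180.5, 173 and 173 in *cat-1* RNAi and 176, 188, 166 and 172 in *cat-2* RNAi, with the 3 groups interleaved. The log2 fold changes were -0.041 (SE 0.0480, adjusted p = 0.942) upon *cat-1* RNAi and 0.032 (SE 0.0480, adjusted p = 0.860) upon *cat-2* RNAi for *ire-1*. For *xbp-1* they were 0.0077 (SE 0.0437, adjusted p = 0.997) and -0.0062 (SE 0.0437, adjusted p = 0.973), and both signs turned under some alternatives.

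*atf-6* (chromosome X, 12480948 to 12484904, plus strand) had the largest fold changes of the 10 genes against EV and the lowest level. It had 9.38, 9.17, 8.84 and 9.34 RPKM in EV, 11.1, 11.3, 10.2 and 11.02 in *cat-1* RNAi and 11.04, 14.1, 8.50 and 10.8 in *cat-2* RNAi, which correspond to 410 to 446, 507 to 533 and 379 to 695 reads per library. All 4 *cat-1* RNAi libraries lay above all 4 EV libraries, while in *cat-2* RNAi replicates 1, 2 and 4 lay above and replicate 3 below them. The means were 10.9 ± 0.485 RPKM in *cat-1* RNAi, 11.1 ± 2.29 RPKM in *cat-2* RNAi and 9.18 ± 0.244 RPKM in EV (SD, n = 4). The log2 fold change was 0.24 (SE 0.115, adjusted p = 0.820) upon *cat-1* RNAi and 0.24 (SE 0.115, adjusted p = 0.566) upon *cat-2* RNAi, with intervals of -0.785% to 39.7% and -0.382% to 40.3%, and the 2 comparisons share the 4 EV libraries. The unadjusted p in limma were 0.0600 and 0.0546. Under the alternatives described below their smallest values were 0.00496 and 0.00236, and the smallest adjusted p were 0.415 and 0.302. Without *cat-2* RNAi replicate 2 the log2 fold change upon *cat-2* RNAi was 0.13, and without replicate 3 it was 0.36 (adjusted p = 0.302 in limma). Between the RNAi groups *atf-6* differed by -0.0058 (SE 0.115, adjusted p = 0.996), with an interval of -16.1% to 18.2%. *ire-1* exceeded *atf-6* by a mean factor of 6.13 in EV, 5.01 in *cat-1* RNAi and 5.30 in *cat-2* RNAi.

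**Figure D2:**
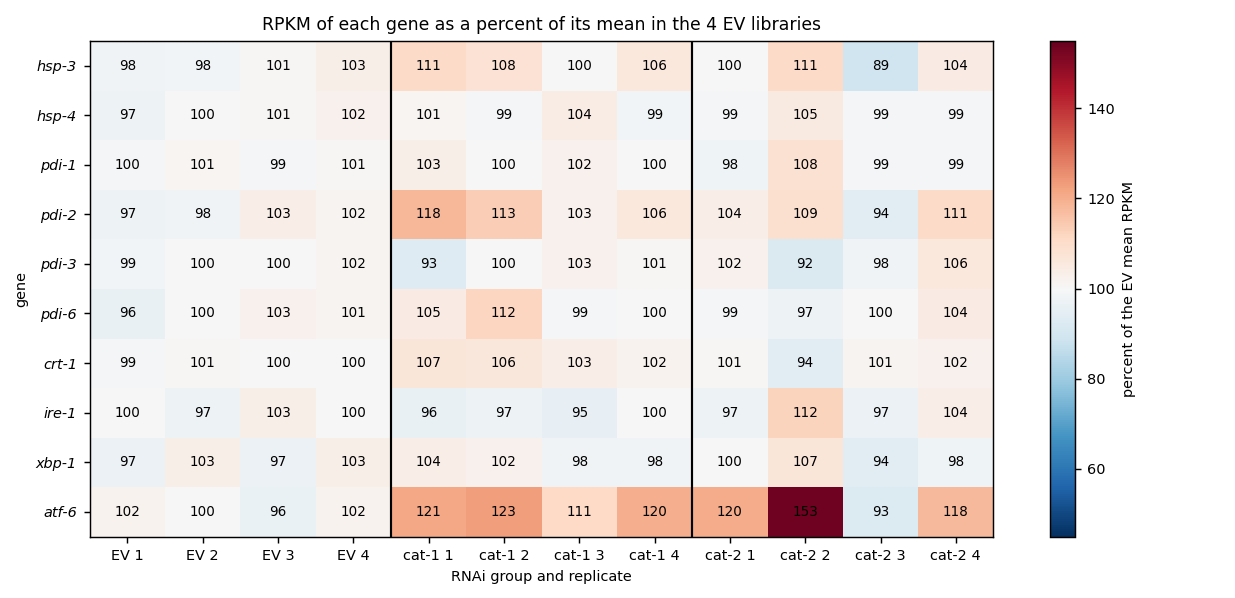
RPKM of each of the 10 genes (y axis) in each library (x axis), as a percent of the gene's mean in the 4 EV libraries, with red above and blue below 100. *atf-6* ranged from 93 to 153 percent, *cat-2* RNAi replicate 2 departed in both directions, and *hsp-4* remained within 97 to 105 percent in all 12 libraries.

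No gene of the 10 passed an adjusted p of 0.05 in limma in any of the 3 comparisons. For *cat-1* RNAi against EV, none of all 13161 genes passed either (0%), and 1 of the 10 (*pdi-2*, higher) had an unadjusted p under 0.05, beside 5.94% of all genes (782). The count over all genes ran from 504 (without *cat-1* RNAi replicate 1) to 1210 (without *cat-1* RNAi replicate 3) with each library left out, and 58.1% of the 782 were higher, against 45.6% and 42.0% without *cat-1* RNAi replicate 1 or 2 and 67.9% without replicate 3. Libraries did not overlap, with *cat-1* RNAi higher, for 2 of the 10 (*crt-1* and *atf-6*) and for 1.92% of all genes (253). None of the 10 lay wholly below EV, as 1.65% of all genes did, and 8 of the 10 had a log2 fold change above 0, beside 51.9% of all genes. The median log2 fold change was 0.036 for the 10 genes and 0.0039 for all genes. Running voom on the recovered reads called 0 of all genes and gave 2 of the 10 (*pdi-2* and *atf-6*) an unadjusted p under 0.05, beside 5.52% of all genes. The count of the 10 under an unadjusted p of 0.05 was 0 without EV replicate 1 or 2 or *cat-1* RNAi replicate 1 or 2, 2 without either *cat-2* RNAi replicate 2 or 3, and 3 (*hsp-3*, *pdi-2* and *atf-6*) without both. The share of all genes under it was larger too in the last 3 fits, at 7.62% without replicate 2, 6.75% without replicate 3 and 8.07% without both.

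For *cat-2* RNAi against EV, 4 of all genes passed the adjusted threshold (0.0304%), none of them among the 10. At an unadjusted p under 0.05 there were 0 of the 10 and 8.84% of all genes (643 higher and 520 lower, or 949 and 298 when libraries were scaled to equal total RPKM). No gene of the 10 was without overlap in either direction, beside 3.03% of all genes higher and 2.42% lower, and 7 of the 10 had a log2 fold change above 0, beside 54% of all genes. The median was 0.0078 for the 10 genes and 0.011 for all. With voom, 3 of all genes passed the adjusted threshold, and the unadjusted one was passed by 1 of the 10 (*atf-6*) and by 8.84% of all genes.

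For *cat-1* RNAi against *cat-2* RNAi, 0 of all genes passed the adjusted threshold with limma (0%) and 1 with voom. At an unadjusted p under 0.05 there were 0 of the 10 and 6.44% of all genes (416 higher and 432 lower, or 297 and 541 at equal total RPKM). None of the 10 was without overlap, beside 1.23% of all genes higher and 1.95% lower, and 7 of the 10 had a log2 fold change above 0, beside 48.5% of all genes. *crt-1* (0.069) and *ire-1* (-0.074, unadjusted p = 0.148) had the smallest p among the 10.

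Leaving aside *atf-6*, the 95% intervals of the other 9 genes reached from -9.54% to 19.6% for *cat-1* RNAi against EV, from -7.80% to 13.3% for *cat-2* RNAi against EV and from -11.5% to 14.95% between the RNAi groups. Transcripts of the dopaminergic neurons were not measured apart from those of the rest of the worm.

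**Figure D3:**
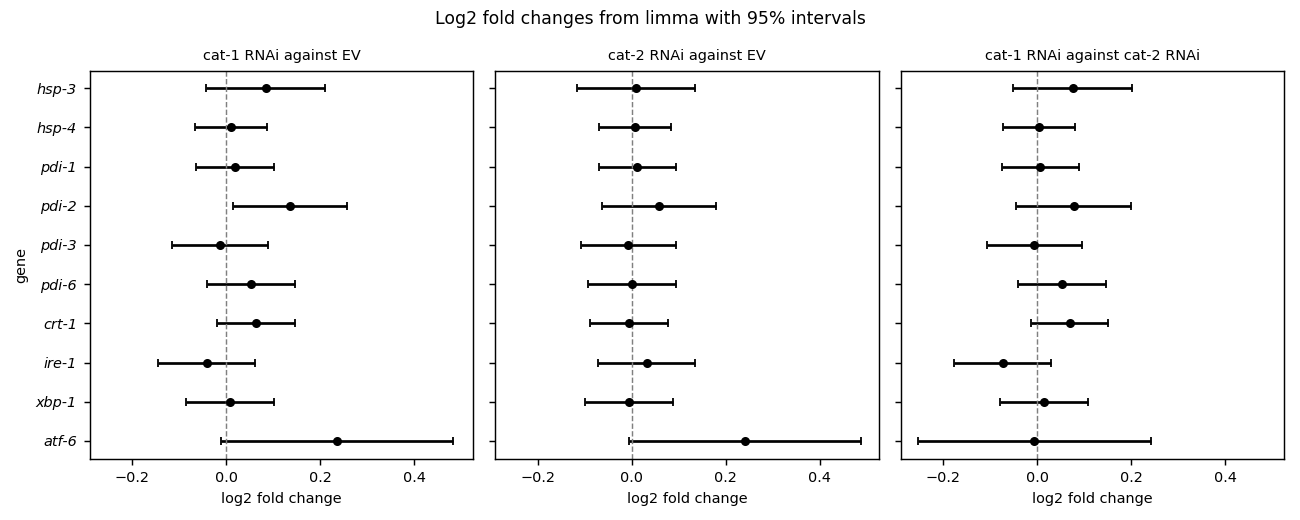
Log2 fold change of each of the 10 genes (y axis) in each of the 3 comparisons (panels), from limma on log2(RPKM + 0.5), with bars for the 95% interval. The only interval without 0 was that of *pdi-2* for *cat-1* RNAi against EV, and the widest intervals were those of *atf-6*.

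Most of the 10 genes varied little between replicates. The residual SD on the log2 scale had a median of 0.0603 over the 10 genes and 0.153 over all tested genes, and abundant genes vary less in general. Among the 784 genes with a mean of at least 150 RPKM the median was 0.0768, and 6 of the 8 of the 10 genes at that level lay below it. The exceptions were *hsp-3* (0.0879) and *pdi-2* (0.0844), which varied more than the median gene of that level. *hsp-4* (0.0370) and *crt-1* (0.0372) had the lowest residual SD and *atf-6* (0.170) the highest. The spread differed between groups: the median coefficient of variation of the 10 genes was 2.44% in EV, 3.54% in *cat-1* RNAi and 5.62% in *cat-2* RNAi, and *cat-2* RNAi had the widest spread for 9 of the 10. Replicate 2 labelled *cat-2* RNAi was the highest of the 12 libraries for 6 genes (*hsp-3*, *hsp-4*, *pdi-1*, *ire-1*, *xbp-1* and *atf-6*) and the lowest for 2 (*pdi-3* and *crt-1*), and replicate 3 was the lowest for 4.

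Together the 10 genes took 0.467% to 0.483% of the mapped reads in EV, 0.484% to 0.499% in *cat-1* RNAi and 0.460% to 0.493% in *cat-2* RNAi. Each *cat-1* RNAi library lay above each EV library, by as little as from 0.483% to 0.484%. Of the difference of 88.0 summed RPKM between the means of *cat-1* RNAi and EV, *crt-1* contributed 32.2, *pdi-2* 28.5 and *hsp-3* 18.4. The sum was not tested, since its members were chosen with results known.

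*hsp-3* and *pdi-2* varied together from library to library. The ratio of *pdi-2* to *hsp-3* had a coefficient of variation of 3.11% over the 12 libraries, although the levels themselves varied by 6.72% and 6.04%, whereas the ratio of *hsp-4* to *hsp-3* varied by 5.90%. *hsp-3*, *pdi-2*, *pdi-6* and *atf-6* are the 4 of the 10 genes on chromosome X. In each library the median deviation from the EV mean was taken over 1653 X-linked and 9882 autosomal tested genes, and the difference between the medians was 0.070, 0.054, -0.023 and 0.014 on the log2 scale in *cat-1* RNAi replicates 1 to 4 and 0.0053, 0.078, -0.047 and 0.041 in *cat-2* RNAi. In EV it was -0.022, 0.044, -0.014 and -0.012. The libraries with the highest X-linked medians, *cat-1* RNAi replicates 1 and 2 and *cat-2* RNAi replicate 2, were those in which *hsp-3* was highest (0.15, 0.11 and 0.15). *cat-2* RNAi replicate 3, with the lowest X-linked median, had the lowest *hsp-3* (-0.17), *pdi-2* (-0.085) and *atf-6* (-0.11). *pdi-6*, the fourth X-linked gene, did not follow this order, with -0.0038 in *cat-2* RNAi replicate 3 and -0.040 in replicate 2, where the X-linked median was highest. In that replicate 2 the autosomal *pdi-1* (0.11) and *ire-1* (0.16) were high as well. EV replicate 2, whose X-linked median was also high, had *hsp-3* at -0.024. *cat-2* RNAi replicate 4, with a similar difference of medians (0.041), had *hsp-3* at 0.063, below the 0.079 of *cat-1* RNAi replicate 4 (0.014). The part of this shift in the values of the 4 genes was not tested.

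**Figure D4:**
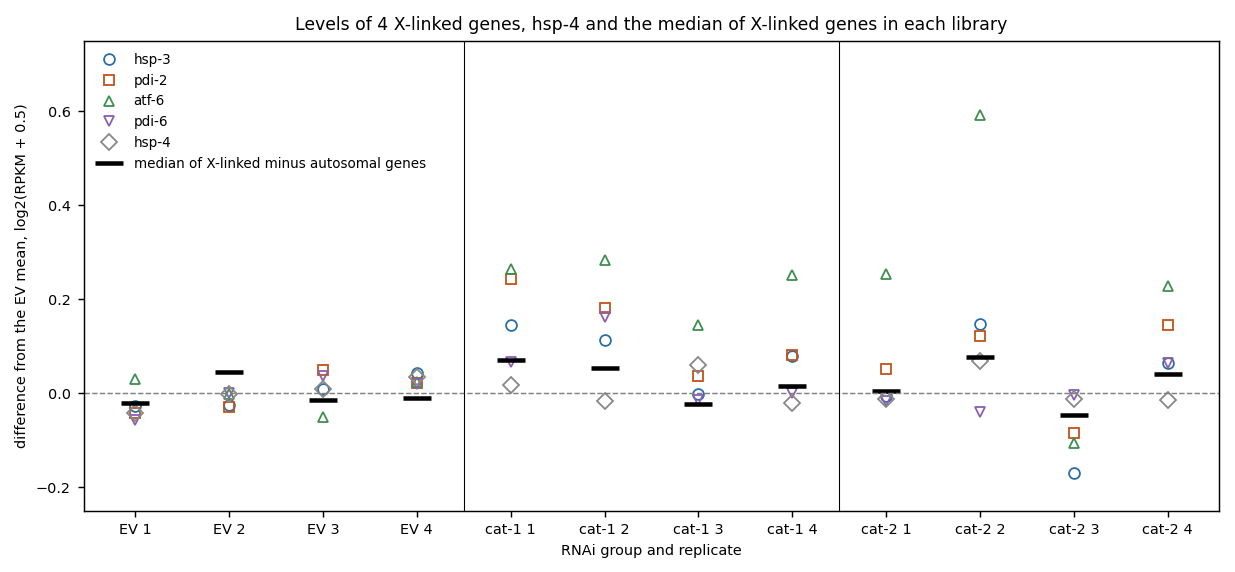
Difference from the EV mean in log2(RPKM + 0.5) (y axis) of *hsp-3*, *pdi-2*, *atf-6*, *pdi-6* and *hsp-4* in each library (x axis), with a black bar for the median of 1653 X-linked genes minus that of 9882 autosomal genes. *hsp-3*, *pdi-2* and *atf-6* were lowest in *cat-2* RNAi replicate 3, where the bar was lowest too, *pdi-6* was not, and the autosomal *hsp-4* remained within -0.042 to 0.069.

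The other listed genes of ER protein folding gave no adjusted call either. Of 71 names listed, 66 had a feature in the table, 3 of them under a synonym, and 52 of these passed the filter on low values. None of the 52 passed the adjusted threshold of limma in any comparison. For *cat-1* RNAi against EV, 1 of the 52 had an unadjusted p under 0.05 in the higher direction and 0 in the lower, beside 3.45% and 2.49% of all genes, and the median log2 fold change was 0.011 for the 52 and 0.0039 for all genes. The gene was *uggt-1*, which encodes the glucosyltransferase that marks unfolded glycoproteins for another round with calreticulin and calnexin. It had 47.5, 50.2, 42.3 and 48.0 RPKM in *cat-1* RNAi and 40.6, 41.4, 40.8 and 41.2 in EV. The groups did not overlap, as for 1.92% of all genes with *cat-1* RNAi higher, and *uggt-1* lay above EV in *cat-2* RNAi as well. Its log2 fold change was 0.19 (SE 0.0588, unadjusted p = 0.00589, adjusted p = 0.808 in limma). The co-chaperone *dnj-29* also lay wholly above EV upon *cat-1* RNAi (0.058, unadjusted p = 0.0901 in limma). The next smallest p were those of the co-chaperones *dnj-7* (0.12, unadjusted p = 0.0816) and *dnj-27* (0.16, unadjusted p = 0.0896).

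By role, the median log2 fold change for *cat-1* RNAi against EV ran from -0.051 over 13 genes of ER-associated degradation, of which 5 lay above 0, to 0.092 over 3 genes of ER calcium handling, which all did, beside 51.9% of all genes. Between them came translocation and signal peptide cleavage (-0.015, 4 of 10 above 0), N-glycosylation (-0.00061, 3 of 6), oxidative folding (0.017, 5 of 6), the abu family (0.026, 1 of 2), further chaperones and co-chaperones (0.058, 8 of 9) and further ER stress signalling (0.069, 3 of 3). Calnexin, encoded by *cnx-1*, and the Hsp90-type chaperone of the ER, encoded by *enpl-1*, differed by -0.0012 and 0.014. The sensor *pek-1* had 20.3, 19.6, 20.8 and 20.4 RPKM in EV, 22.4, 23.4, 18.5 and 21.5 in *cat-1* RNAi and 20.6, 21.7, 17.8 and 21.4 in *cat-2* RNAi, and the groups overlapped. Of the 15 genes of the abu family, which are induced by ER stress when the unfolded protein response is blocked, 2 passed the filter.

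For *cat-2* RNAi against EV, 1 of the 52 genes had an unadjusted p under 0.05 in the higher direction and 5 in the lower, beside 4.89% and 3.95% of all genes. The 3 with the smallest p were lower: the isomerase-like *Y49E10.4* by a log2 fold change of -0.15 (adjusted p = 0.488), *trap-4*, a subunit of the translocon-associated complex, by -0.12 (adjusted p = 0.488), and *emo-1*, a subunit of the Sec61 channel, by -0.16 (adjusted p = 0.509), all from limma. All 4 libraries lay below EV for *trap-4*, *K12H4.4* and *cdc-48.2*, as for 2.42% of all genes. *uggt-1* had 42.9, 49.2, 41.8 and 45.5 RPKM in *cat-2* RNAi, all above EV, as were 3.03% of all genes. Its log2 fold change was 0.13 (unadjusted p = 0.0518, adjusted p = 0.564 in limma). By role, the medians ran from -0.096 for translocation and signal peptide cleavage (3 of 10 above 0) to 0.11 for ER calcium handling (3 of 3), beside 54% of all genes above 0. Between them came N-glycosylation (-0.00031, 3 of 6), ER-associated degradation (0.00035, 7 of 13), further ER stress signalling (0.0029, 2 of 3), the abu family (0.027, 1 of 2), further chaperones and co-chaperones (0.035, 7 of 9) and oxidative folding (0.092, 5 of 6). With libraries scaled by median ratio, an unadjusted p under 0.05 was reached by 2 of the 52 higher and 9 lower, beside 4.28% and 4.71% of all genes, and at equal total RPKM by 2 and 2, beside 7.21% and 2.26%. In the same libraries 6 markers of hypodermis and cuticle summed to 499 to 573 RPKM, below the 628 to 742 RPKM of EV. The sum was almost wholly *col-119* (mean 532 RPKM in EV and 419 in *cat-2* RNAi) and *col-19* (145 and 118). The others had means of at most 0.952 RPKM, with *rol-6* and *dpy-7* higher and *bli-1* and *dpy-13* lower in *cat-2* RNAi. The part of these markers in the values above was not tested. For *cat-1* RNAi against *cat-2* RNAi, the unadjusted threshold was passed by 3 of the 52 higher and 1 lower, beside 3.16% and 3.28% of all genes. The smallest p were those of *emo-1* (0.18), *trap-2* (0.14) and *hrdl-1*, a ubiquitin ligase of ER-associated degradation (-0.13), with adjusted p from 0.699 to 0.757 in limma.

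**Figure D5:**
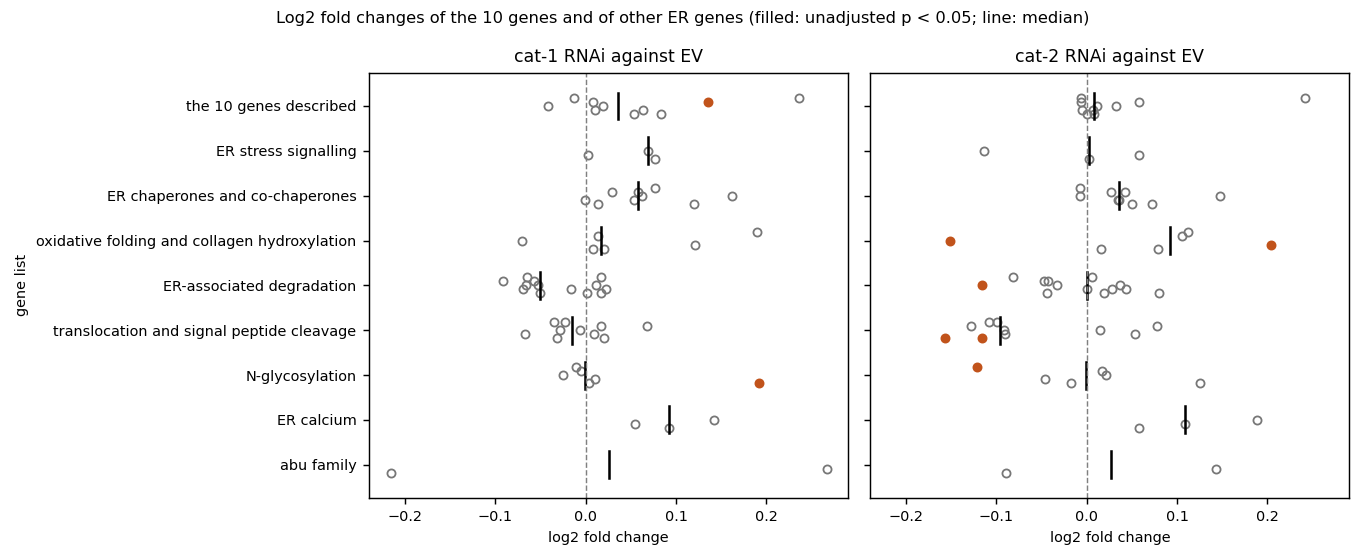
Log2 fold change (x axis) of the 10 genes and of 52 other ER genes by list (y axis) for each RNAi against EV (panels), with filled points for an unadjusted p under 0.05 and a line for each list's median. *uggt-1* and *pdi-2* were the only filled points for *cat-1* RNAi, and no point passed the adjusted threshold.

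The genes whose log2 levels followed *hsp-4* most closely over the 12 libraries were *eri-9* (Pearson r = 0.879), *F35C8.5* (0.831), *F09G2.2* (0.822), *T01H3.2* (0.816) and *idh-1* (0.811). Among the 10 genes *pdi-1* was the most like *hsp-4* (0.778), and the other BiP gene *hsp-3* had 0.341. The mean of the 7 chaperones and folding enzymes, each standardised, was followed most closely by *tbc-12* (0.905), *ZK1073.1* (0.896), *hil-3* (0.881), *tsp-21* (0.873) and *mrpl-4* (0.869). These are the highest of 13161 values over 12 libraries that share their depth and their outlying members, and they are given as a description.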

How the data were processed

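Paired-end reads of 150 bp were obtained from whole-worm poly(A) RNA of 12 libraries. Reads were mapped by the authors to ce11 with CLC software, and RPKM values for 46739 features were deposited; the sources used here do not give mapping settings, strand or the handling of reads with several places. The p-values, false discovery rates and group means that the authors deposited were not used. An RPKM value depends on the other transcripts of its library. Mapped totals (18765779 to 21493743) and whole reads were recovered from the steps of RPKM. Of the 20423 features above 0, 100% were whole within 0.0001 reads, or within a wider tolerance in proportion to the count for the most abundant. They served for counting error and voom.

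The 13161 genes with 0.5 RPKM or more in 4 or more libraries were tested on log2(RPKM + 0.5) by limma 3.58.1 in R 4.3.3 with a variance trend and robust estimation, using 1 model of the 12 libraries, and p-values were adjusted by Benjamini-Hochberg in each of 3 comparisons. The pseudocount shrinks fold changes of low genes. The *hsp-4* to *hsp-3* ratio was compared by exact permutation (scipy 1.17.1). Residual SD is that of log2 values about group means. Scripts were tested on simulated data. Alternatives covered scaling, pseudocount, filter, variance estimation, library weights, a replicate block, 2-group models, voom and leaving out each library. Coordinates come from Ensembl release 115 of WBcel235. Named genes were the 10 members, up to 3 pathway genes per comparison with the smallest unadjusted p, and the 5 genes most like *hsp-4* or the mean of 7 folding factors. After their values were seen, *cnx-1*, *enpl-1* and *pek-1* were added for their roles. *dnj-29*, *K12H4.4* and *cdc-48.2* were added for lying wholly on 1 side of EV. The members and lists were chosen with earlier results of these data known.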

Additional observations from a re-analysis of the deposited data

Results flagged for a closer look

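In 33 groups of 4 values (the 10 genes and the *hsp-4* to *hsp-3* ratio in each group), 3 held a library set apart from the other 3 by a gap of more than 0.829 of the group's range, which chance does in about 1 in 20 groups. *hsp-4* had 199 RPKM in replicate 2 labelled *cat-2* RNAi, against 188.1 to 188.5 RPKM in its other 3 libraries. *pdi-1* had 293 RPKM in the same library, against 265 to 268 RPKM in the other 3. The ratio of *hsp-4* to *hsp-3* was 0.653 in *cat-1* RNAi replicate 3, against 0.572 to 0.584 in the other 3.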

How the results depend on the processing

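Each log2 fold change was recomputed under 25 alternatives, of which 24 were planned and 1, leaving out both *cat-2* RNAi replicates 2 and 3, was chosen after seeing the data. In none did any of the 10 genes or of the 52 other ER genes pass the adjusted threshold, and 68 of 750 recomputed values of the 10 genes changed direction. Many of the 750 could not change, because the log2 fold change is a difference of group means. It is the same under another filter or variance estimation, with the replicate block and in 2-group models. Leaving out a library of the group outside the comparison does not alter it either. The share that turned is therefore no measure of robustness. The 14 of 30 results that kept their direction throughout went both ways. In *cat-1* RNAi against EV, *hsp-3*, *pdi-1*, *pdi-2*, *pdi-6*, *crt-1* and *atf-6* remained higher and *ire-1* lower. In *cat-2* RNAi against EV, *pdi-2* and *atf-6* remained higher. In *cat-1* RNAi against *cat-2* RNAi, *hsp-3*, *pdi-2*, *pdi-6* and *crt-1* remained higher and *ire-1* lower. Scaling by median ratio turned the log2 fold change to -0.0015 for *xbp-1* in *cat-1* RNAi against EV, -0.0079 for *hsp-3*, -0.0094 for *hsp-4*, -0.0047 for *pdi-1* and -0.016 for *pdi-6* in *cat-2* RNAi against EV, 0.0014 for *pdi-3* and 0.0012 for *atf-6* in *cat-1* RNAi against *cat-2* RNAi. Quantile normalization turned it to 0.024 for *pdi-3* in *cat-1* RNAi against EV, 0.057 for *pdi-3*, 0.075 for *crt-1* and 0.022 for *xbp-1* in *cat-2* RNAi against EV, -0.023 for *hsp-4*, -0.033 for *pdi-1* and -0.015 for *xbp-1* in *cat-1* RNAi against *cat-2* RNAi. Equal total RPKM turned it to 0.028 for *pdi-3*, 0.029 for *crt-1* and 0.028 for *xbp-1* in *cat-2* RNAi against EV, -0.020 for *hsp-4*, -0.016 for *pdi-1* and -0.0092 for *xbp-1* in *cat-1* RNAi against *cat-2* RNAi. Library weights turned it to -0.0069 for *hsp-4*, -0.011 for *pdi-1*, 0.028 for *pdi-3* and 0.014 for *crt-1* in *cat-2* RNAi against EV, 0.031 for *atf-6* in *cat-1* RNAi against *cat-2* RNAi, and leaving out both *cat-2* RNAi replicates 2 and 3 to -0.014 for *hsp-4*, -0.025 for *pdi-1*, 0.059 for *pdi-3* and 0.023 for *crt-1* in *cat-2* RNAi against EV. With each library left out in turn, values that turned ranged for *cat-1* RNAi against EV from -0.0062 to 0.022 for *hsp-4*, -0.029 to 0.018 for *pdi-3* and -0.0082 to 0.023 for *xbp-1*. For *cat-2* RNAi against EV they ranged from -0.038 to 0.068 for *hsp-3*, -0.014 to 0.019 for *hsp-4*, -0.022 to 0.027 for *pdi-1*, -0.037 to 0.030 for *pdi-3*, -0.020 to 0.014 for *pdi-6*, -0.018 to 0.022 for *crt-1*, -0.012 to 0.058 for *ire-1* and -0.040 to 0.019 for *xbp-1*, and between the RNAi groups from -0.013 to 0.024 for *hsp-4*, -0.0078 to 0.041 for *pdi-1*, -0.043 to 0.025 for *pdi-3*, -0.012 to 0.047 for *xbp-1* and -0.12 to 0.11 for *atf-6*. The *hsp-4* to *hsp-3* ratio in *cat-2* RNAi against EV ranged from -0.054 to 0.024 on the log2 scale, and was 0.00076 as a difference of ratios in place of their log2. The causes were not tested.

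Over all genes, the count at an adjusted p under 0.05 for *cat-2* RNAi against EV was 4, and became 2 with median ratio scaling, 2 with quantile normalization, 1 with a pseudocount of 0.1, 0 without the filter, 0 without trend or robust estimation, 9 with library weights, 1 in a model of the 2 groups and 0 to 5 with each library left out. For *cat-1* RNAi against EV it was 0 and became 1 without *cat-1* RNAi replicate 3 (0 to 1 with each library left out). Between the RNAi groups it was 0, and became 1 with library weights, 1 with voom, 2 without both *cat-2* RNAi replicates 2 and 3, and 0 to 2 with each library left out (2 without *cat-2* RNAi replicate 1). The groups share replicate numbers, but of 12 pairs with the same number 1 had deviations correlated above 0.1 (r from -0.058 to 0.19), so the numbers were not treated as pairs. With the replicate number as a block, the count for *cat-2* RNAi against EV was 0 in place of 4, 2 of the 10 (*pdi-2* and *atf-6*) had an unadjusted p under 0.05 for *cat-1* RNAi against EV, beside 6.89% of all genes, and 1 (*atf-6*) for *cat-2* RNAi against EV, beside 9.44%. In 4 of the 12 pairs between groups the library with the same number was the best correlated one.

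The coefficient of variation exceeded the counting error for all 10 genes in both RNAi groups and for 8 of 10 in EV. The exceptions in EV were *pdi-1* (0.967% against 1.08%) and *atf-6* (2.66% against 4.84%). In *cat-1* RNAi *atf-6* was close to the counting error (4.44% against 4.39%). The part of depth in the spread was not tested. *atf-6*, with 379 to 695 reads a library, had the widest interval.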
